A study of Mus musculus with 2 samples.

Results

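Genes that handle iron, copper and zinc, 9 in number, were compared across the cell clusters of a single-cell RNA-seq (scRNA-seq) study of mouse liver: Cp, Hamp, Trf, Tfrc, Fth1, Ftl1, Hpx, Mt1 and Mt2. The genes were chosen by name, and their rows were taken from both of the authors' deposited tables of genes listed for each cluster. The hepatocyte table names 1609 genes in 2103 rows and lists all 9 members, in 13 rows. The table of all cells names 1755 genes in 3742 rows and lists 5 members (Cp, Hamp, Trf, Tfrc and Hpx), in 9 rows, while Fth1, Ftl1, Mt1 and Mt2 are not listed there. The cells were primary hepatocytes of wild type male BALB/c mice that had received daily intraperitoneal injections for 5 days, of PBS in 1 group and of 0.5 µg recombinant IL-33 (rIL-33) in the other, and the study describes the mice as fasted. How many mice entered a library is not given in the sources used here. Each group gave 1 droplet-based 3′ library, in which molecules are counted through unique molecular identifiers (UMIs), 2 libraries in all. Per the paper's methods, these libraries were made without a sort by flow cytometry, and immune and other liver cells came with the hepatocytes. Both libraries were pooled in the tables, so PBS and rIL-33 were not compared, and no spread between replicates can be set beside any value.

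Iron enters the blood through the exporter ferroportin, is oxidized by the copper-carrying ferroxidase ceruloplasmin, travels on transferrin and is taken up through the transferrin receptor. Inside cells it is stored in ferritin, a shell of heavy and light chains, and the liver hormone hepcidin closes the circuit by removing ferroportin from cell surfaces. Hepatocytes make most of the plasma proteins of this circuit, and several of them (hepcidin, ceruloplasmin, hemopexin) are also known as acute phase proteins, while metallothioneins bind zinc and copper through their many cysteines.

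The members fall into those known for control at the promoter and those known for control of the mRNA by iron, and sequences of both kinds are shown for the members concerned. In the 250 bases before the start of Hamp (RefSeq, GRCm38.p6, minus strand, chr7:30944030-30944279), capitals mark the core of the BMP-responsive element (GGCGCC) and a STAT site (TTCNNNGAA). In the 250 bases before the RefSeq starts of Mt1 (plus strand, chr8:94178839-94179088) and Mt2 (plus strand, chr8:94172368-94172617), capitals mark cores of the metal response element (TGCACNC or TGCGCNC, on either strand).
Hamp: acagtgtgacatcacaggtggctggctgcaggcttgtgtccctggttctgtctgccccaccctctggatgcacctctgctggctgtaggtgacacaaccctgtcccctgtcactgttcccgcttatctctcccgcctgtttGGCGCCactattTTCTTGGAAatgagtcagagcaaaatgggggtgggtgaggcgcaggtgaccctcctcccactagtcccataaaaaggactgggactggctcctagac
Mt1: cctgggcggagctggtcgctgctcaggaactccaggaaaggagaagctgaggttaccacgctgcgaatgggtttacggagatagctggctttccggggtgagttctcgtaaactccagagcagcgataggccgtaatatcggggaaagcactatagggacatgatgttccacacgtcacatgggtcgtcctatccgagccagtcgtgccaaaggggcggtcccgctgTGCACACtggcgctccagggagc
Mt2: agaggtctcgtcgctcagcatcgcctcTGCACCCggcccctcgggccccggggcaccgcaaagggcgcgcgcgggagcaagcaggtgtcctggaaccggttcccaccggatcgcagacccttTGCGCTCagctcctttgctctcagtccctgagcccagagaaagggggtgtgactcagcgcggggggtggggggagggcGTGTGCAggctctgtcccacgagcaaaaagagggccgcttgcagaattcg

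Both motifs of Hamp lay close together, the STAT site from 97 to 89 bases and the BMP-responsive core from 109 to 104 bases before the start. Of 32851 promoter windows of the same length, 7.02% held the STAT site, 9.59% the BMP-responsive core and 0.368% both. The metal response core was found 3 times in the window of Mt2 and once in that of Mt1. Of all windows, 21.4% held at least 1 match, 5.17% at least 2 and 0.304% at least 4. The share with at least 3, the count of Mt2, was not computed. The windows of Mt1 and Mt2 end at RefSeq starts, which differ from the GENCODE starts given below. Bases past these ends were not searched, so the counts hold for the windows only. Windows were given for 8 of the 9 members (not Trf), 11 windows in all, and the metal response core was also found in 1 of the windows of Tfrc, as 2 overlapping matches. The same window of Tfrc held 1 BMP-responsive core. A match is a run of letters and does not show that a factor binds there.

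The mRNAs of both ferritin chains and of the transferrin receptor carry iron-responsive elements, hairpins bound by the iron regulatory proteins. Transcripts of GENCODE M21 (GRCm38) were searched for the loop CAGTGN on a stem of 5 base pairs (G-U pairs allowed) with an unpaired C before it. Of the longest protein-coding transcripts of 21877 genes, 1.24% held such a match. Tfrc had 4 in its 3′ untranslated region and was the 1 gene with 3 or more. Fth1 and Ftl1 had 1 each, in the 5′ untranslated region, and the other 6 members had 0. The element of Fth1 (chr19:9982732-9982760, plus strand), that of Ftl1 (chr7:45459779-45459807, minus strand) and the 4 of Tfrc (chr16:32631219-32631247, chr16:32631598-32631626, chr16:32631663-32631691 and chr16:32631710-32631738, plus strand) are given with the loop in capitals.
Fth1: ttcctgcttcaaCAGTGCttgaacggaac
Ftl1: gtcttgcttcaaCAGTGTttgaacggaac
Tfrc element 1: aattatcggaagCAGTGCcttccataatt
Tfrc element 2: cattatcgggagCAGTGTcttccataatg
Tfrc element 3: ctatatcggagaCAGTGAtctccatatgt
Tfrc element 4: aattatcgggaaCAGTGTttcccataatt

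The quantity compared throughout is the share of cells in which a gene was detected (a value above 0), which the authors give for the cells of a cluster and for the cells outside it, rounded to 3 decimals. Every row of both tables was listed by the authors because the mean of the gene was higher in the cluster, and holds a share of at least 25% inside or outside it. A gene that is not listed can therefore still be expressed. A share rises with the UMIs counted per cell, which are not given, so that no share is set at equal depth. Counting error depends on the number of cells in a cluster, and no interval for it was computed. Among the hepatocyte clusters, Hepatocyte5 was by far the smallest by the sizes that follow, and its shares rest on the fewest barcodes. The share over all hepatocytes must come out equal from each cluster for which a gene is listed, and 486 genes listed for at least 2 clusters thereby gave the relative cluster sizes: 55.6% of the hepatocytes for Hepatocyte1, 14.9% for Hepatocyte2, 10.1% for Hepatocyte3, 18.1% for Hepatocyte4 and 1.47% for Hepatocyte5. The clusters differed in how their lists were made up. The share was higher inside the cluster in 878 of 880 rows of Hepatocyte4 and 873 of 874 rows of Hepatocyte5, but in 8 of 170 rows of Hepatocyte1 and 79 of 123 rows of Hepatocyte3. The part of depth in any result below was not tested. Free RNA in the droplets can give UMIs in cells that do not express a gene, and the tables give no estimate of it. In the table of all cells, markers of neutrophils were detected in a median of 35.55% of the cells outside their cluster. Those of Kupffer cells were detected in a median of 23.25%. Medians were 18.6% for red blood cells (1 marker), 10.1% for endothelial cells and 5.5% for T cells. They were 5.15% for B cells and 4.15% for hepatic stellate cells and fibroblasts. By the shares of Tfrc, that table cannot count the same values as the hepatocyte table. Whether free RNA gave these medians was not tested, and they are no measure of it for the hepatocyte table. A share in either table is one of barcodes with a value above 0 and not of cells shown to express the gene. Of 6 markers of hepatocytes, 4 (Alb, Apoa1, Tat and Hnf4a) were listed for a hepatocyte cluster in the table of all cells. Of 34 markers of 7 other cell types, 25 were listed under their own cell type in the table of all cells and 0 were listed in the hepatocyte table. The names of 2 clusters were less well covered, with 2 of 5 endothelial markers and 1 of 6 red blood cell markers (Car2) listed.

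In the hepatocyte table, the members divided into a group listed for Hepatocyte4 and Hepatocyte5 (Cp, Trf, Hpx and Tfrc) and a group listed for Hepatocyte1 and Hepatocyte3 (Hamp, Ftl1, Fth1, Mt1 and Mt2). In the table of all cells, Hpx was listed across this division, for both Hepatocyte1 and Hepatocyte5. Other genes crossed it in the hepatocyte table, such as Hp (Hepatocyte1 and Hepatocyte5) and Sod1 (Hepatocyte3 and Hepatocyte4). How many of the 1609 genes do so was not counted, so the division is not read as a trait of the members. Hepatocyte4 listed 2 of the 9 members, where 54.7% of the 1609 genes of the table were listed, and Hepatocyte5 listed 4, where 54.3% were. Hepatocyte3 listed 4 members against a background of 7.64%, and Hepatocyte1 listed 3 against 10.6%. Hepatocyte2 listed 0 members, with a background of 3.48%. The background counts the genes listed for at least 1 cluster, because genes that were listed for none are not in the table. The rows of the first group had higher shares inside the cluster, whereas those of the second group had shares within 6 percentage points of those outside it.

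**Figure D1:**
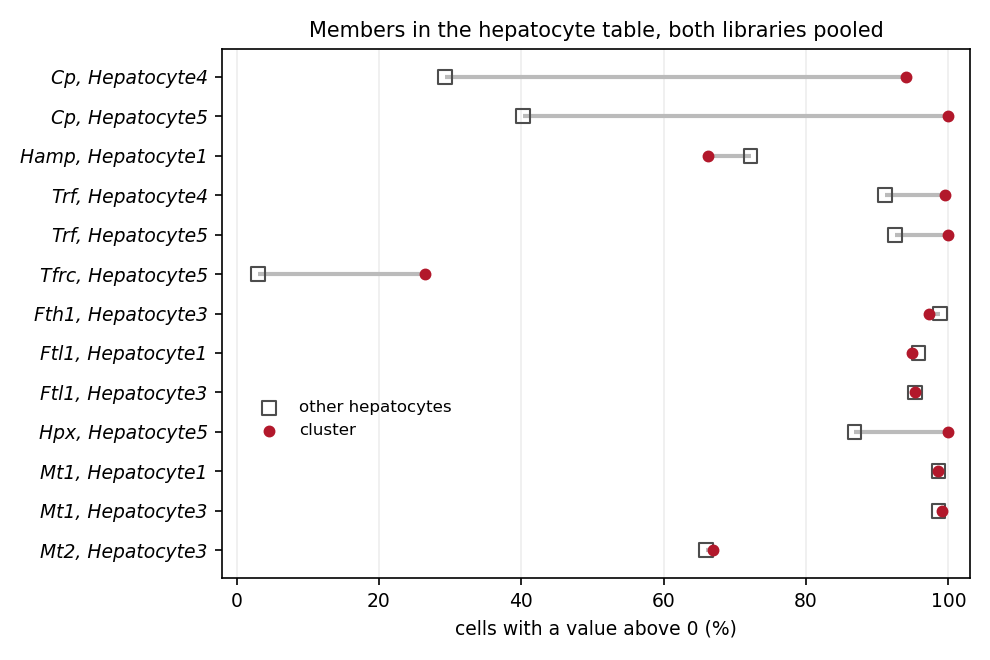
Share of cells in which the gene was detected (percent, horizontal axis) for each of the 13 rows of the members in the hepatocyte table; filled circles are the cells of the named cluster and open squares the other hepatocytes, with both libraries pooled and no error bars because there are no replicates. The wide gaps belong to Cp (94.0% against 29.3% in Hepatocyte4) and Tfrc (26.5% against 3.0% in Hepatocyte5), while the rows of Fth1, Ftl1, Mt1 and Mt2 lie within 1.5 percentage points.

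Cp encodes ceruloplasmin, the copper-carrying ferroxidase of plasma (GRCm38, chromosome 3, 19957054 to 20009145). It was detected in 94.0% of Hepatocyte4 cells against 29.3% of hepatocytes outside that cluster, which is 64.7 percentage points more. In Hepatocyte5 the share was 100%, against 40.2% of the other hepatocytes. The share over all hepatocytes was 41.1%, which left 28.0% for Hepatocyte1, Hepatocyte2 and Hepatocyte3 as 1 pool (27.975 to 28.0989% when every share is moved by its rounding). Cp was thus found in nearly every cell of both clusters and in a minority of the rest. By difference in share it ranked 2 of the 880 genes listed for Hepatocyte4 and 183 of the 874 listed for Hepatocyte5. The rank depends on how common a gene is, so Cp was also set beside genes whose share outside the cluster lay within 5 percentage points of its own. Of 37 such genes in Hepatocyte4, Cp had the highest share inside the cluster, and their median was 77.2%. Of 30 such genes in Hepatocyte5, 4 reached 100% (Cp among them), with a median of 98.35%.

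**Figure D2:**
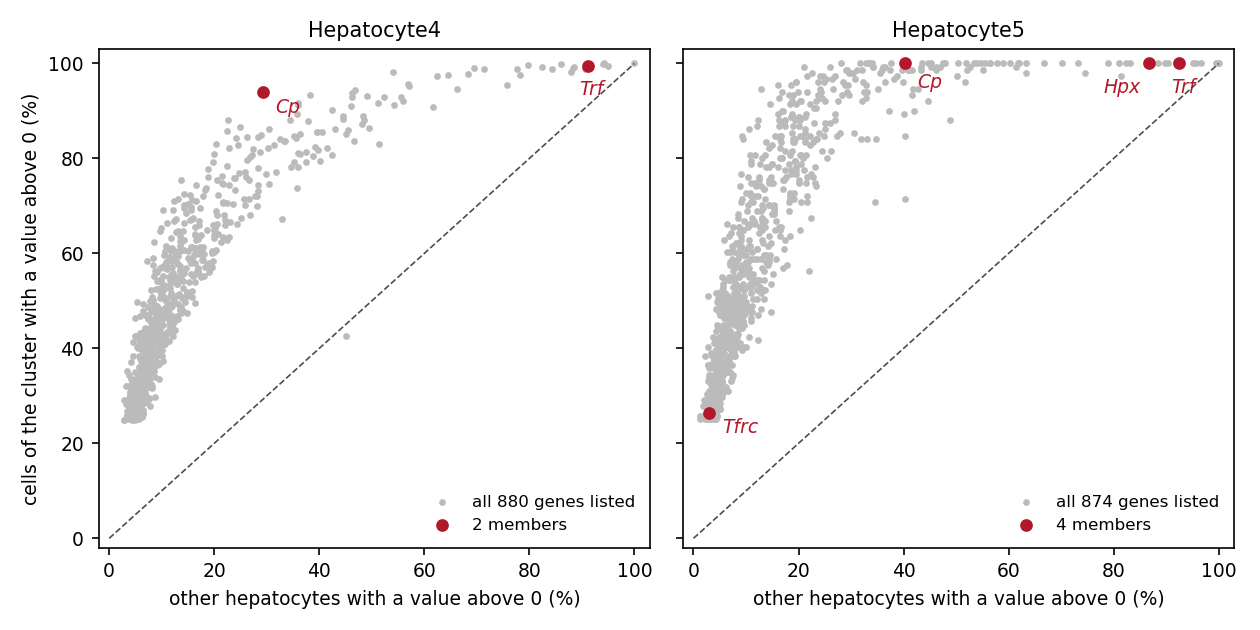
Detection of each gene as a share of the cells inside the cluster (percent, vertical axis) against the share in the other hepatocytes (percent, horizontal axis) for all genes listed for Hepatocyte4 (left) and Hepatocyte5 (right), with members in red and the dashed line marking equal shares. Nearly all genes lie on 1 rising band above the line; Cp stands at the upper edge of the band in Hepatocyte4, and Tfrc at the lower end of it in Hepatocyte5.

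Trf encodes transferrin, the iron carrier of plasma (chromosome 9, 103204001 to 103230444). Its share was 99.5% in Hepatocyte4 against 91.1% outside, and 100% in Hepatocyte5 against 92.5% outside. Hepatocyte1, Hepatocyte2 and Hepatocyte3 as 1 pool had 90.9%, and their separate values are not fixed by the table. Trf was not detected in 0.5% of Hepatocyte4 and 8.9% of the other hepatocytes, which does not show that the transcript was absent there. A gene this common has little room for a higher share, and Trf ranked 874 of 880 by difference in Hepatocyte4.

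Hpx encodes hemopexin, which binds free haem in plasma (chromosome 7, 105591613 to 105600137). In the hepatocyte table it was listed for Hepatocyte5, where it was detected in all cells (100%) against 86.8% outside. It was thus not detected in 13.2% of the other hepatocytes. All 6 genes with a like share outside the cluster, Hpx included, also reached 100%.

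Tfrc encodes the transferrin receptor, through which cells take up iron-loaded transferrin (chromosome 16, 32608920 to 32632794). It was the scarce member of the hepatocytes: it was detected in 26.5% of Hepatocyte5 cells against 3.0% of hepatocytes outside, and the share over all hepatocytes was 3.35%. The ratio of both shares was 8.83. With 3.0% outside, the gene could be listed only with a share of at least 25% inside, so its ratio had to be high. Tfrc ranked 814 of 874 by difference. By share inside the cluster it ranked 338 of the 376 genes whose share outside Hepatocyte5 lay within 5 percentage points of its own. Tfrc lay just above the 25% at which genes enter the table, with 30 rows of Hepatocyte5 below it.

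Hamp encodes hepcidin, the hormone that removes ferroportin (chromosome 7, 30942368 to 30944032). It was listed for Hepatocyte1, although it was detected in fewer cells of that cluster (66.2%) than of the other hepatocytes (72.2%). The mean for which it was listed was higher in the cluster, and the share was lower. Lower shares were usual for this cluster, with a median difference of -22.85 percentage points over its 170 rows, and Hamp ranked 18 of 170. Of 9 genes of Hepatocyte1 with a like share outside, Hamp had the highest share inside, against a median of 42.0%. Hamp has a near-identical neighbour, Hamp2, which is not listed in either table, and how reads shared by both were counted is not given.

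Fth1 (chromosome 19, 9980598 to 9985098) and Ftl1 (chromosome 7, 45457944 to 45459884) encode the heavy and light chains of ferritin, the iron store of the cell. Fth1 was listed for Hepatocyte3, with a share of 97.3% inside and 98.8% outside. Ftl1 was listed for Hepatocyte3 with 95.3% inside and outside, and for Hepatocyte1 with 94.9% inside and 95.8% outside. Both chains were therefore detected in nearly all hepatocyte barcodes, and the shares do not show the higher mean for which they were listed. Ferritin genes have processed pseudogenes (2 annotated ones carry the name of Fth1 and 1 that of Ftl1 in GENCODE M21), and reads that fit a copy equally well make these values uncertain.

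Mt1 (chromosome 8, 94179082 to 94180327) and Mt2 (chromosome 8, 94172664 to 94173568) encode metallothioneins that bind zinc and copper, and lie 5513 bases apart on the same strand. Mt1 had a share of 99.1% in Hepatocyte3 against 98.6% outside, and of 98.6% both inside and outside Hepatocyte1. Mt2 was found in 66.9% of Hepatocyte3 cells and 65.9% of the others. Both genes were thus listed for Hepatocyte3, and Mt1 alone for Hepatocyte1. The differences in share, at most 1 percentage point, were close to the median of 1 percentage point over the 123 rows of Hepatocyte3, and the share of Mt2 was far from its ceiling. Over all hepatocytes the share was 98.6% for Mt1 and 66.0% for Mt2.

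For each member, the genes listed for the same hepatocyte clusters were ordered by the largest difference in share from the member, over the listed clusters and the rest. Nearest to Cp, among 429 genes and over 3 values, were Plg (plasminogen), Slco1b2 (a bile acid and drug importer) and Fn1 (fibronectin), which stayed within 6.80 percentage points. Nearest to Trf were Ahsg (fetuin-A), Gc (the vitamin D binding protein) and Serpina3k, within 3.18 percentage points. Hpx had Apoh and Fgb (fibrinogen beta chain) within 5.1 points, over 2 values and among 435 genes. These are genes of secreted plasma proteins except Slco1b2. Ftl1 and Mt1 were nearest to each other among 20 genes listed for both Hepatocyte1 and Hepatocyte3, with a largest difference of 3.8 points over 3 values, followed for both by Chchd2. Hamp was nearest to Atp5j2 (6.2 points) and Mpc2 (6.5 points), over 2 values and among 128 genes. Fth1 was nearest to Scp2 (1.6 points, among 80 genes) and Mt2 to Gsta3 (2.8 points) and Ppia (3.3 points), and Tfrc lay within 0.4 points of Tra2a, Atp6v0a2 and Fam13b in a crowded range of low shares. The measure uses detection alone, and genes near 100% are alike by it whatever their means.

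Beyond the members, 64 other genes of iron, copper, zinc and haem handling were tallied. Hepatocyte clusters listed 24 of them, the table of all cells listed 21, and 33 were in neither table. Hepatocyte4 listed 12 and Hepatocyte5 14, with 7 in common. Of the 1609 genes of the hepatocyte table, 429 besides Cp were listed for exactly these clusters. Every one of the rows had a higher share inside the cluster, as had 878 of all 880 rows of Hepatocyte4 and 873 of all 874 rows of Hepatocyte5. The median difference was 37.3 percentage points in Hepatocyte4, against 33.1 over all 880 rows, and 36.15 in Hepatocyte5, against 42.95 over all 874 rows. As shares of the 24 genes, the counts of 12 and 14 are close to the 54.7% and 54.3% of all genes that were listed for the same clusters. The 5 genes with the largest differences in either cluster included Tfr2 and Tmprss6, which ranked 84 and 216 of the 880 rows of Hepatocyte4 and 20 and 15 of the 874 rows of Hepatocyte5. Tfr2, the hepatocyte sensor of iron-loaded transferrin, was found in 60.5% of Hepatocyte4 cells against 10.7% outside and in 92.1% of Hepatocyte5 cells against 18.7%. Tmprss6, a protease that restrains hepcidin, was found in 54.3% against 11.5% and in 93.4% against 18.1%. Hamp itself was listed for neither cluster.

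Several of the rows were transporter genes. Slc39a14, a zinc and iron importer, had shares of 41.4% in Hepatocyte4 against 4.6% outside, and of 76.2% in Hepatocyte5 against 10.3%, which left 3.29% for the other 3 clusters. Slc40a1, which encodes ferroportin, was found in 44.4% of Hepatocyte4 cells against 6.9% and in 57.0% of Hepatocyte5 cells against 13.1%. For Slc31a1, the copper importer, the shares were 41.9% against 8.0% and 52.3% against 13.6%. The scavenger receptor gene Lrp1, which takes up haem bound to hemopexin, reached 88.1% in Hepatocyte5 against 16.2% outside. The iron chaperone genes Pcbp2 (74.4% against 22.9%) and Pcbp1 (60.4% against 16.8%) were listed for Hepatocyte4 and not for Hepatocyte5. The zinc and manganese transporter genes Slc30a10, Slc39a7, Slc39a4 and Slc30a1 were listed for Hepatocyte5 and not for Hepatocyte4 in the hepatocyte table, with shares between 29.1% and 44.4% inside and between 2.8% and 5.3% outside. In the table of all cells, Slc39a4 was listed for Hepatocyte4 too (55.8% against 33.2%). Slc31a1 and these 4 transporter genes were picked out after their values were seen. Being listed for 1 cluster and not for another was not tested as a difference between them.

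**Figure D3:**
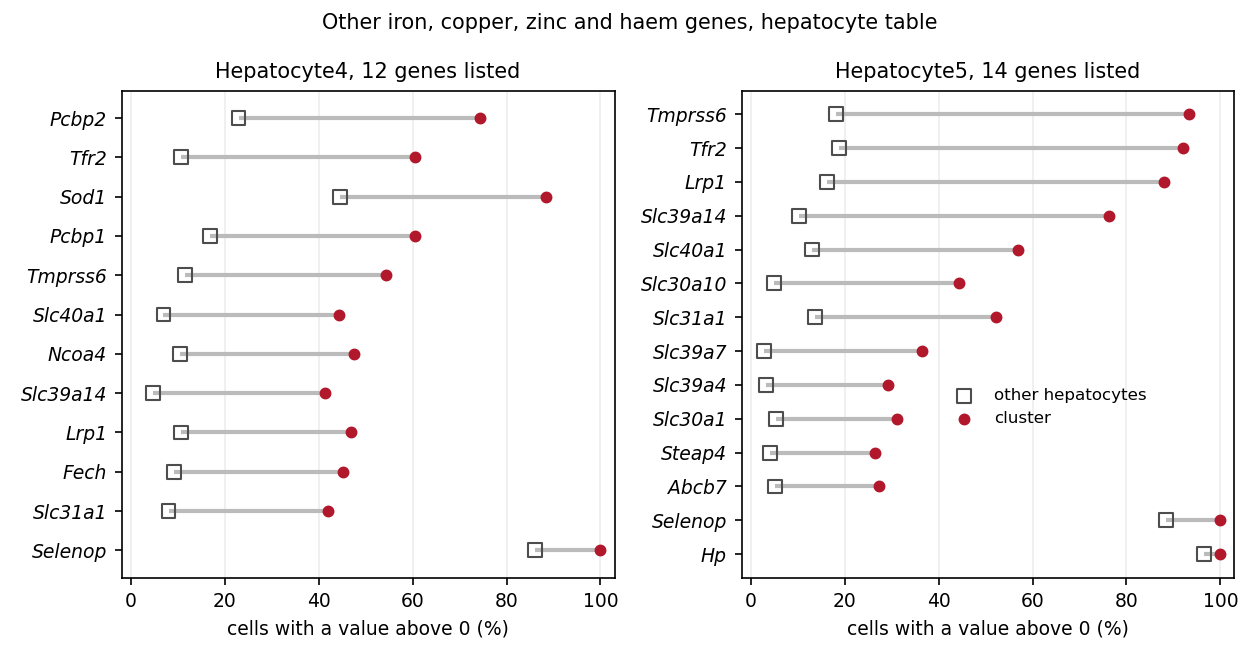
Share of cells in which the gene was detected (percent, horizontal axis) for the genes of the wider metal list that were listed for Hepatocyte4 (left, 12 genes) and Hepatocyte5 (right, 14 genes), ordered by difference; filled circles are the cluster and open squares the other hepatocytes, both libraries pooled, with no error bars because there are no replicates. Every circle lies to the right of its square, and Tmprss6 and Tfr2 exceed 90% in Hepatocyte5.

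The other 3 hepatocyte clusters listed few genes of the wider list. Ccs, which delivers copper to superoxide dismutase, was the 1 gene of the list for Hepatocyte2, with 54.9% inside and 20.5% outside. Sod1, the enzyme it serves, was listed for Hepatocyte4 (88.4% against 44.6%) and for Hepatocyte3 (52.0% against 52.6%). Hepatocyte3 also listed Blvrb, a biliverdin reductase (33.5% against 24.3%), Alas1, the first enzyme of haem synthesis (26.3% against 23.8%), and the copper chaperone gene Atox1 (59.5% against 58.6%). Hepatocyte1 listed Hp, which encodes haptoglobin (97.2% against 95.8%), and Cox17, a copper chaperone of the respiratory chain. Cox17 was found in 25.1% of Hepatocyte1 cells and 56.2% of the other hepatocytes, the reverse order of the mean for which it was listed.

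In the table of all cells, 12 clusters are each set against the remaining cells, and its shares are not on the scale of the hepatocyte table. For 825 pairs of a gene and a hepatocyte cluster found in both tables, the share inside the same cluster was higher in the table of all cells in 704, equal in 104 and lower in 17, with a median difference of 10.5 percentage points. Tfrc shows that both cannot count the same values. By the table of all cells it was detected in 29.6% of the cells, but with 3.35% of the hepatocytes, which were 90.0% of the cells, the share could not exceed 13.0% even if every other cell had the transcript. Values in the table of all cells are therefore given on their own, and how the difference arose is not given in the sources used here.

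In that table, Hepatocyte4 listed 2 members (Cp and Trf), where 25.2% of the 1755 genes were listed, and Hepatocyte5 listed 3 (Cp, Trf and Hpx), where 24.7% were. The share of Cp was 95.1% in Hepatocyte4 against 50.7% of all other cells, and 100% in Hepatocyte5 against 57.4%. Trf had 99.5% against 89.8% in Hepatocyte4 and 100% against 91.2% in Hepatocyte5. Hepatocyte1 listed 2 members, Hpx and Hamp, against a background of 1.77%. Hpx had 97.5% against 90.0% there and 100% against 93.7% in Hepatocyte5. Hamp had 82.9% in Hepatocyte1 against 78.8%, so that the order of its shares was the reverse of that in the hepatocyte table. Cp and Trf kept both clusters in both tables.

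Outside the hepatocytes, Tfrc was the 1 member listed. In the cluster named red blood cells it was detected in 96.3% of the cells against 29.1% of all other cells, and ranked 23 of 320 by difference, where 18.2% of the genes of the table were listed. By the sizes solved for all cells, that cluster held 0.708% of the cells and Hepatocyte5 1.34%. Shares in the red blood cell cluster thus rest on fewer barcodes still. Developing red cells are known for high transferrin receptor, which mature ones lack. In Kupffer cells, the resident macrophages of the liver, Tfrc was also listed, with a background of 28.4%, but its share was lower inside (13.2%) than outside (30.0%), and the median row of that cluster was 22 percentage points higher inside.

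**Figure D4:**
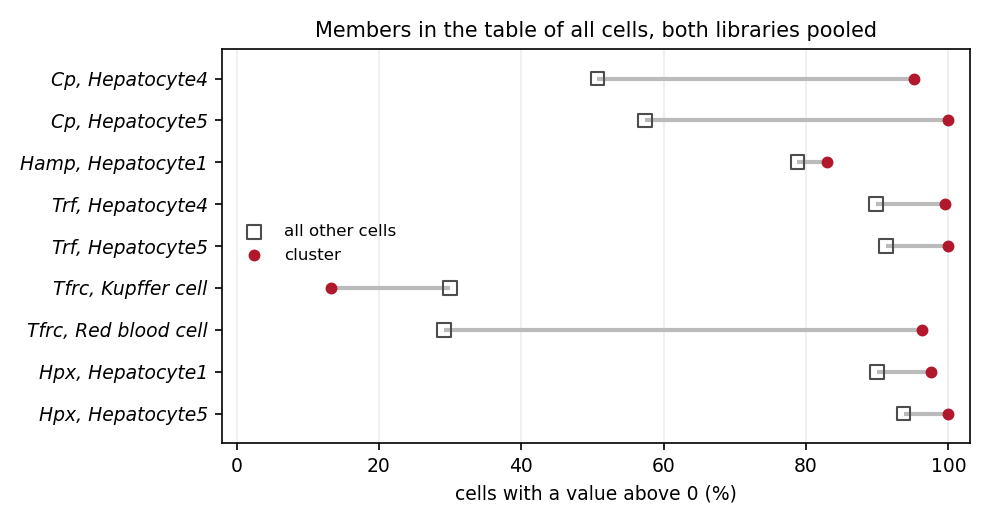
Share of cells in which the gene was detected (percent, horizontal axis) for the 9 rows of the members in the table of all cells; filled circles are the named cluster and open squares all other cells, both libraries pooled, with no error bars because there are no replicates. Tfrc reaches 96.3% in the red blood cell cluster and lies below the other cells in Kupffer cells (13.2% against 30.0%).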

How the data were processed

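Hepatocyte scRNA-seq libraries of PBS-treated and rIL-33-treated mice (1 each, 2 in all) were mapped to their groups from the sample titles. Per the paper's methods and the labels, UMIs were counted by the authors with Cell Ranger (mm10), and they filtered cells on gene number and mitochondrial share, scaled and log-transformed the counts, then clustered with Seurat, named the clusters and listed genes with FindAllMarkers; doublets were limited by the upper gene number, and none could be called from the tables. The deposited fractions give, in a cluster and outside it, how many cells had the gene detected, pooled by the authors over both libraries, and are printed as percentages. The deposited log2 fold changes, p-values and adjusted p-values are the authors' comparisons. They were not used, except that no fold change was found at or below 0 (0 rows). No test was run, since clusters and lists came from the same cells.

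Cluster sizes were solved by least squares, so that both shares balance to 1 value over all hepatocytes, from genes listed for at least 2 clusters. The solving step was also run on simulated cells of known cluster sizes. Simulated shares balance by construction, so that run checks the arithmetic and not the sizes given here. The 7 rows of the hepatocyte table whose gene names are stored as dates were left out of matching. Alternatives were only rows with a gap of 10 percentage points or more, least absolute deviations, sizes from the other table, and stricter rules for a listing. All members were named, and from the wider list the 5 genes of each hepatocyte cluster with the largest difference in share, with others named as such. The members and lists were chosen with earlier results of these data known. The comparison with genes of like share outside a cluster (within 5 percentage points) was added after seeing the data. Gene positions and transcripts were from GENCODE M21 (GRCm38, the assembly of mm10), and promoters from RefSeq (GRCm38.p6), searched on both strands. Python 3.11.15, NumPy 2.4.6, pandas 2.3.3, SciPy 1.17.1 and Matplotlib 3.10.9 were used. Depth per library and cell is unknown.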

Additional observations from a re-analysis of the deposited data

How the results depend on the processing

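With other cluster sizes (rows at least 10 percentage points apart, least absolute deviations, or the table of all cells), all 69 recomputed cluster sizes and shares of members stayed within 1 percentage point of the values given, the largest move being 0.102 points. Some of these could not move. For Hamp, Tfrc, Fth1, Hpx and Mt2, each listed for 1 hepatocyte cluster, the share in the other clusters is the deposited share outside, whatever the sizes. Of 30 recounts of listed genes, 18 stayed within 1.5 times. Counting rows with a higher share inside the cluster, members fell to 0 in Hepatocyte1 and 2 in Hepatocyte3, and the wider list to 1 in Hepatocyte1. With a share at least 10 percentage points higher, members fell to 0 in Hepatocyte1, 0 in Hepatocyte3 and 1 in Hepatocyte4, and the wider list to 0 in Hepatocyte1 and 0 in Hepatocyte3. In the table of all cells, members fell to 0 in Hepatocyte3, and the wider list to 1 in Hepatocyte1, 0 in Hepatocyte2 and 9 in Hepatocyte5. No paired analysis was possible because each group had 1 library and both were pooled, and no library could be left out for the same reason. Depth per cell is not given, so no share could be set at equal depth.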

Other observations

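Among the clusters of other cells, genes of the wider list had higher shares inside some clusters and lower shares inside others. Kupffer cells listed 4 of its 21 genes in the table of all cells, where 28.4% of all genes were listed: Cd163, the receptor for haptoglobin-bound haemoglobin (76.2% of cells against 16.7% of all other cells), Slc40a1, which encodes ferroportin (92.7% against 34.6%), Hmox1, the haem oxygenase that frees iron from haem (75.2% against 29.8%), and Lrp1 (66.9% against 41.7%). The median difference of these 4 genes was 51.75 percentage points, against 22 over all 499 rows of the cluster. The red blood cell cluster also listed 4 of the 21 genes, where 18.2% of all genes were listed, so that neither count stands apart from its background. Alas2, the erythroid first enzyme of haem synthesis, had 97.5% against 7.4%, Slc25a37, which carries iron into mitochondria, had 100% against 21.6%, Fech had 93.8% against 44%, and Blvrb had 98.8% against 49.4%. Their median difference was 64.1 points, against 33.65 over all 320 rows. Tfrc was listed for the same cluster. These genes were picked out after their values were seen.

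Bmp2, a signal that raises hepcidin, was listed for the cluster named endothelial cells (28.7% against 4.0%) and for hepatic stellate cells and fibroblasts (47.4% against 4.2%). Lcn2, an iron-siderophore binding protein, was listed for neutrophils (96.2% against 83.4%) and for Hepatocyte5 (100% against 83.5%). Lower shares inside the cluster were found for Slc40a1 in neutrophils (32.5% against 36.2%), for Selenop in endothelial cells (83.3% against 92.7%) and for Smad7, an inhibitor of BMP signalling, in endothelial cells (21.3% against 40.6%), T cells (27.0% against 40.6%) and B cells (15.0% against 41.0%). These shares are on the scale of the table of all cells. By the sizes solved for all cells, endothelial cells were 0.991% of the cells, and hepatic stellate cells and fibroblasts 0.171%. Shares in such small clusters rest on few barcodes.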
